A study of Homo sapiens with 8 samples.

Results

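The zinc-dependent histone deacetylases HDAC1 to HDAC10 were followed in DND41, an established line of T-cell acute lymphoblastic leukaemia, after expression of an shRNA against SIRT1. The members were the 10 rows with these gene symbols among 18133 gene rows, and all 10 passed the filter on low values. Class I comprised 4 members (HDAC1, HDAC2, HDAC3 and HDAC8), class IIa 4 (HDAC4, HDAC5, HDAC7 and HDAC9) and class IIb 2 (HDAC6 and HDAC10). Doxycycline had been given for 72 h to all cells, controls included, to switch on the shRNA, and all groups were grown in RPMI with serum. SIRT1 was targeted by a construct named sh1 in 3 libraries and by one named sh3 in another 3, beside 2 libraries of a control shRNA (shC). Replicates bear the letters A, B and C, of which the controls used here are A and C. All cultures are of 1 cell line, what the construct numbers stand for is not stated, and p-values measure only the spread between these cultures.

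Zinc-dependent deacetylases remove acetyl groups from lysines with a metal ion in the active site, whereas SIRT1 is a sirtuin that uses NAD+ for the same reaction. Class I enzymes work in the nucleus, mostly within large corepressor complexes. Class IIa enzymes have weak activity of their own, bind MEF2 transcription factors, recruit HDAC3 through NCOR corepressor complexes, and leave the nucleus when kinases phosphorylate them and 14-3-3 proteins bind. Class IIb comprises HDAC6, a cytoplasmic deacetylase of tubulin, and HDAC10, a polyamine deacetylase. In mouse thymocytes, HDAC7 is known as a repressor that is exported on T-cell receptor signalling.

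The target of the shRNAs was lowered in both arms. The SIRT1 level averaged 1300 ± 36.5 normalized counts in the 3 sh1 libraries and 1165 ± 60.1 in the 3 sh3 libraries (mean ± SD), against 1832 ± 123 in the 2 controls, a difference from the control mean of -29.1% for sh1 and -36.4% for sh3. The log2 difference between the knockdown mean and control was -0.57 ± 0.063 (SE; adjusted p = 0.000297, limma with Benjamini-Hochberg adjustment over all 13885 genes tested, as for every adjusted p here). Library totals lay between 33087800 and 34072700 normalized counts, which is a scale set by the normalization, so the sequencing depth is unknown. For sh3 library C, title and genotype name the SIRT1 knockdown, whereas the description names the control. Its Spearman correlation was at least 0.9955 with the other sh3 libraries and at most 0.9925 with the controls, and it was kept with sh3. Of 9 T-cell markers 7 had a row and 6 averaged at least 10 normalized counts (CD3D, CD3E, CD3G, CD7, LCK and TRBC1), while TRBC2 was at 0 in 5 of the 8 libraries. The summed T-cell markers spanned 67287 to 71014 with sh1 and 59364 to 60094 with sh3, against 78127 to 81737 in controls. All 5 myeloid markers and both erythroid markers with a row averaged under 10. Of the B-cell markers, CD79A was at 17609 to 19281 with sh1 and 23365 to 24766 with sh3, against 23989 to 25708 in controls, while PAX5 and CD22 averaged under 10. Among the markers of adherent cells, VIM was at 24333 to 26049 in the knockdown libraries and 25606 to 25977 in controls, whereas KRT8 was at 25.2 to 47.2 and 28.9 to 32.6, and COL1A1, COL1A2 and KRT18 averaged under 10 over all libraries.

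The RefSeq promoter entry of HDAC7 is shown because HDAC7 was the member that differed most between sh1 and sh3. RefSeq promoter entries were matched for 9 of the 10 members, with HDAC5 unmatched. The 250 bases upstream of the HDAC7 start lie on the minus strand at chr12:47819904-47820153 (GRCh38.p14), and CG dinucleotides are in capitals.
HDAC7: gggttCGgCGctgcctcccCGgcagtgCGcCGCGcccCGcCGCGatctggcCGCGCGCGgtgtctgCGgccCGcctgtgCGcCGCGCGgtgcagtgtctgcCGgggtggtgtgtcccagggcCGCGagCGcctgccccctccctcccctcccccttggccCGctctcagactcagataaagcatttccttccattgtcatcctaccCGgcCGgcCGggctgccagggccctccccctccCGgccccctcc
This window held 28 CG dinucleotides and 75.6% G or C, against medians of 11 and 58.0% over 35095 RefSeq promoters, and 84.1% of those promoters held fewer CG dinucleotides. Its start lies 17 bases from the nearest GENCODE start of HDAC7 and 13229 bases from the outermost one. Short motifs, none of which contains another, were searched on both strands of these 250-base windows. Of all promoters, 42.6% held the GC box GGGCGG, 32.0% held CCAAT and 6.34% held the E-box CACGTG. The cyclic AMP element TGACGTCA was held by 1.65%, the AP-1 element TGACTCA by 4.20% and the forkhead element GTAAACA by 2.98%. None of these letter runs occurred in the HDAC7 window. Among other members, the HDAC1 window held 21 CG dinucleotides and 3 GGGCGG, and the HDAC10 window held 35 CG dinucleotides and 4 GGGCGG.

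In control cells the class I enzymes HDAC2, HDAC1 and HDAC3 had the most mRNA per kilobase of complete coding transcripts. HDAC2 was at 5754 ± 210 normalized counts per kilobase, HDAC1 at 3981 ± 76.4 and HDAC3 at 1611 ± 11.2 (SD, n = 2). The class IIb enzymes followed, with HDAC10 at 1199 ± 51.1 and HDAC6 at 1078 ± 39.0. HDAC7 at 571 ± 60.4 and HDAC4 at 570 ± 30.6 did not differ beyond their spread. HDAC8, the class I enzyme that acts outside the large complexes, was at 464 ± 63.0. HDAC5 at 94.0 ± 9.08 and HDAC9 at 13.4 ± 5.43 were the lowest. With sh3, HDAC7 reached 1225 ± 129 normalized counts per kilobase (n = 3), beside HDAC10 at 1188 ± 48.3 and HDAC6 at 1185 ± 37.1 in the same cells. The order depended on the transcript length used, since HDAC2 was in place 3 and HDAC1 in place 1 when the longest coding transcript was taken. With the median of all coding transcripts HDAC4 was in place 2, HDAC1 in place 3 and HDAC3 in place 6, below HDAC6 and HDAC7. HDAC9 was in place 10 with each of these lengths. By gene span, introns included, HDAC10 overlaps MAPK12 on the same strand over 5956 bases and HDAC8 overlaps AL133500.1 over 243328 bases. Shared exons were not measured, so the split of reads between these genes may be uncertain.

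**Figure D1:**
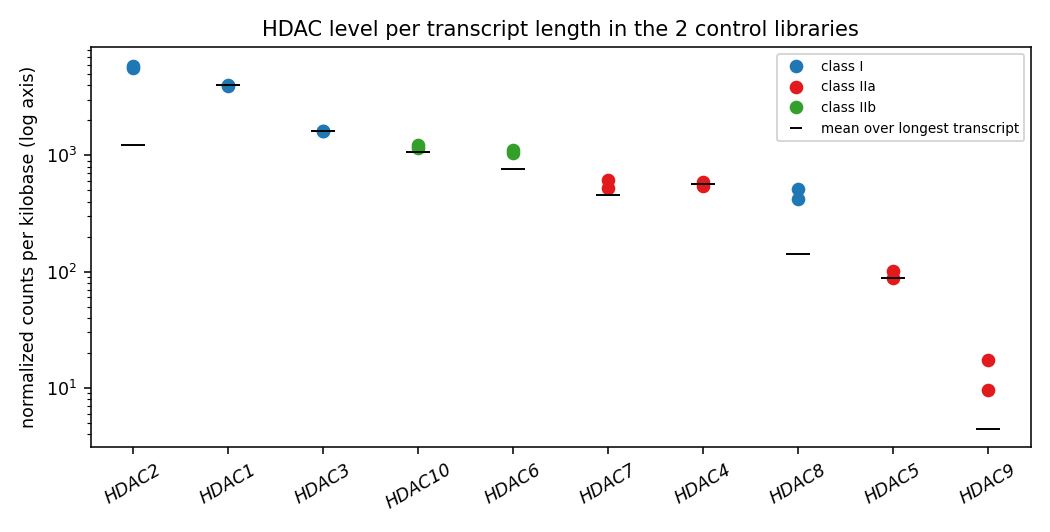
Normalized counts per kilobase (log axis) of the 10 deacetylases in the 2 control libraries, with points for libraries, colours for classes and bars for the mean over the longest coding transcript. HDAC2 is highest at 5754 and HDAC9 lowest at 13.4, and the bar of HDAC2 lies at 1214.

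Against control, 2 of the 10 members were higher in the knockdown mean, none was lower and 8 did not pass the test. Both of the higher members, HDAC5 and HDAC7, are class IIa enzymes. Over all genes tested, 12.7% were called in this comparison, 6.55% higher and 6.19% lower. The groups did not overlap for 1 member, HDAC5, and for 23.2% of all genes (11.9% higher and 11.4% lower). With sh1 alone 1 member was higher and 0 lower, beside 2.88% and 3.43% of all genes. With sh3 alone 2 members were higher and 0 lower, beside 9.36% and 9.19% of all genes. Both constructs were set against the same 2 controls. The median size of the log2 difference of the knockdown mean was 0.078 over the members and 0.13 over all genes. At an unadjusted p under 0.05 there were 4 members, which adds HDAC1 and HDAC6, beside 28.6% of all genes.

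**Figure D2:**
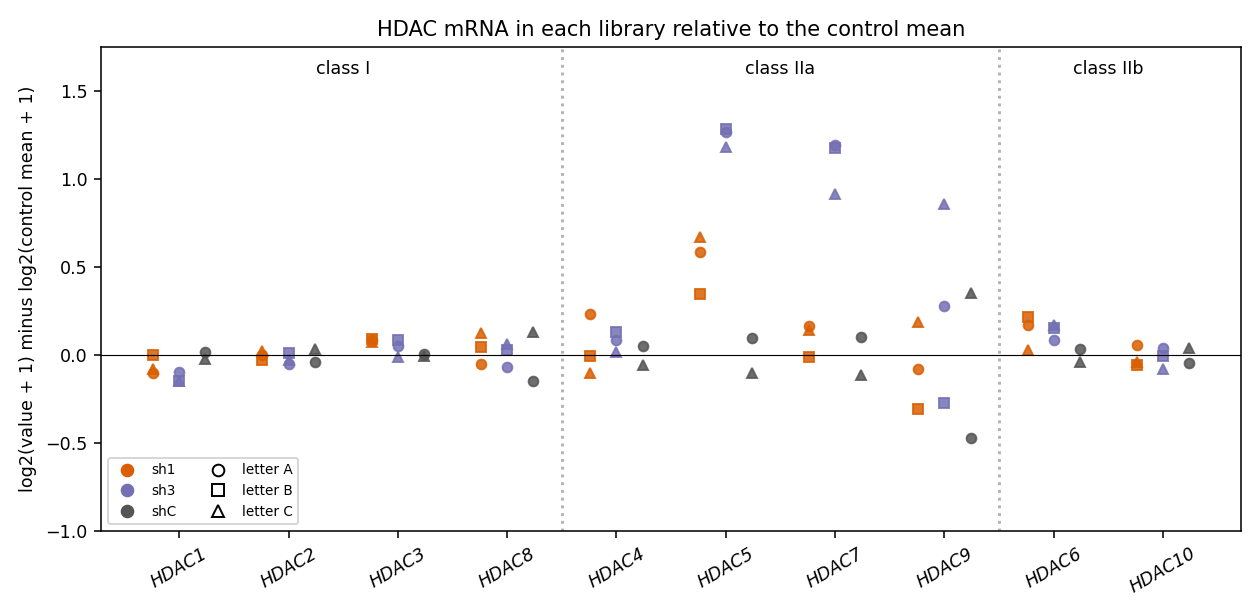
Log2(value + 1) of each library minus log2 of the control mean + 1 for the 10 deacetylases, grouped by class, with sh1, sh3 and shC from left to right and the replicate letter as symbol. HDAC5 stands above control with both constructs and HDAC7 with sh3, while class I and IIb members lie close to 0.

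HDAC5 (chr17:44076746-44123702, minus strand, GRCh38) binds MEF2 and is exported from the nucleus when protein kinase D or CaM kinases phosphorylate it. Its level was 712, 602 and 754 normalized counts with sh1 (A, B, C) and 1144, 1157 and 1077 with sh3, against 506 and 441 in controls (A, C). All 6 knockdown libraries stood above both controls, and all 3 sh3 libraries above all 3 sh1 libraries. The knockdown mean was 1.86-fold the control, a log2 difference of 0.89 ± 0.092 (SE; 95% interval 0.69 to 1.10; adjusted p = 0.000191). With sh3 alone HDAC5 was 2.38-fold higher (log2 difference 1.25 ± 0.10; adjusted p = 2.28e-05), which placed it at rank 78 from the highest of 13885 genes. With sh1 alone it was 1.45-fold higher (0.54 ± 0.10; adjusted p = 0.014) at rank 395. The sh1 call ended without control C (0.44; adjusted p = 0.13) and with a variance prior that ignored the level of expression (adjusted p = 0.073).

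HDAC7 (chr12:47782722-47833132, minus strand, GRCh38) is the class IIa enzyme best known in developing T cells. It had 2086, 1845 and 2053 normalized counts with sh1 and 4260, 4216 and 3508 with sh3, against 2000 and 1722 in controls. The sh3 libraries stood above all others, whereas the sh1 libraries overlapped the controls. The knockdown mean was 1.52-fold the control (log2 difference 0.60 ± 0.085; adjusted p = 0.00154). With sh3 alone HDAC7 was 2.14-fold higher (1.10 ± 0.095; 95% interval 0.89 to 1.31; adjusted p = 3.27e-05), rank 113 from the highest. With sh1 it did not pass the test (0.10; 95% interval -0.11 to 0.31; adjusted p = 0.57). HDAC7 shares 32 bases with SLC48A1 on the opposite strand.

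The constructs differed for both of these members. The log2 difference of sh1 from sh3 was -0.71 ± 0.092 for HDAC5 (adjusted p = 0.000517) and -0.998 ± 0.085 for HDAC7 (adjusted p = 3.07e-05). No other member was called between sh1 and sh3, while 11.4% of all genes were (5.61% higher and 5.83% lower in sh1). The sh1 and sh3 libraries did not overlap for these 2 members and for 30.5% of all genes (15.2% in each direction). SIRT1 itself differed by 0.16 between sh1 and sh3 (adjusted p = 0.14), with the sh1 libraries above the sh3 libraries. The T-cell marker sums and the CD79A values given above also differed between the constructs without overlap, and their part in the HDAC5 and HDAC7 differences was not tested. In bulk RNA, fewer cells of a kind and less RNA per cell cannot be told apart.

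**Figure D3:**
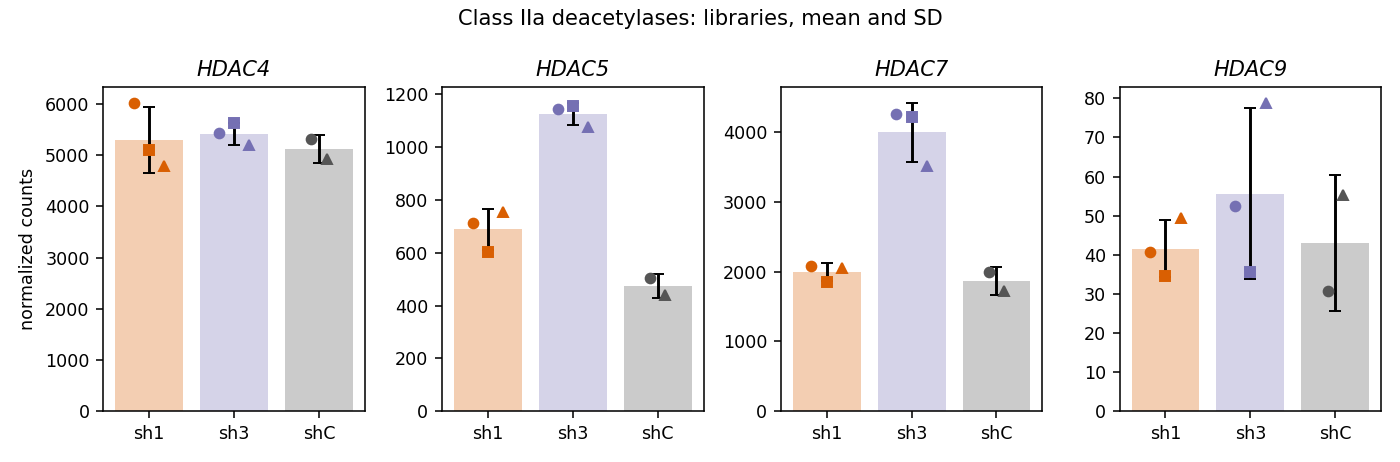
Normalized counts of the 4 class IIa deacetylases with sh1, sh3 and shC, with bars for the mean, whiskers for SD and points for libraries (circle A, square B, triangle C). HDAC7 averages 1995 with sh1, 3995 with sh3 and 1861 in controls, while HDAC4 and HDAC9 overlap between groups.

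The other class IIa members did not pass the test in any comparison. HDAC4, a repressor of MEF2 that follows calcium signals, had 6021, 5103 and 4780 normalized counts with sh1 and 5436, 5621 and 5196 with sh3, against 5317 and 4927 in controls. These groups overlapped, with a log2 difference of the knockdown mean of 0.062 (95% interval -0.10 to 0.23). HDAC9 had 40.8, 34.7 and 49.3 with sh1 and 52.5, 35.5 and 78.9 with sh3, against 30.8 and 55.4 in controls. At this low level the interval of its log2 difference ran from -0.52 to 0.86, a span that takes in the value of HDAC7, 0.60.

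Class I members were close to control. HDAC1, a catalytic subunit of the NuRD, SIN3 and CoREST complexes, had 7883, 8461 and 8014 normalized counts with sh1 and 7926, 7653 and 7643 with sh3, against 8570 and 8341 in controls. The 3 sh3 libraries lay below both controls, but the log2 difference of -0.13 missed the threshold (adjusted p = 0.083). Its paralogue HDAC2 had 12007, 11778 and 12184 with sh1 and 11584, 12094 and 11788 with sh3, against 11682 and 12301 in controls. The HDAC2 groups overlapped, and the interval of the knockdown difference ran from -0.097 to 0.077 on the log2 scale.

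HDAC3, the enzyme of the NCOR complexes, had 3353, 3368 and 3321 normalized counts with sh1 and 3269, 3348 and 3128 with sh3, against 3171 and 3140 in controls. The sh1 libraries lay above both controls, by 0.085 on the log2 scale (adjusted p = 0.35). Such separation of 3 against 2 libraries was seen for 2 members and 38.2% of all genes with sh1 (19.3% higher and 18.9% lower), and for 4 members and 49.8% of all genes with sh3 (24.8% higher and 25.1% lower). HDAC8 had 783, 839 and 884 with sh1 and 776, 830 and 850 with sh3, against 733 and 889 in controls, and its groups overlapped.

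Class IIb members were also not called. HDAC6 had 3637, 3746 and 3288 normalized counts with sh1 and 3421, 3585 and 3632 with sh3, against 3309 and 3144 in controls. Its knockdown difference was 0.14 on the log2 scale (95% interval 0.014 to 0.26; adjusted p = 0.13), and the sh3 libraries lay above both controls. It was called when sh1 library C was left out (0.17; adjusted p = 0.047). HDAC10 had 2955, 2730 and 2768 with sh1 and 2920, 2836 and 2693 with sh3, against 2756 and 2928 in controls, with groups that overlapped and a log2 difference of -0.013 (95% interval -0.13 to 0.10).

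**Figure D4:**
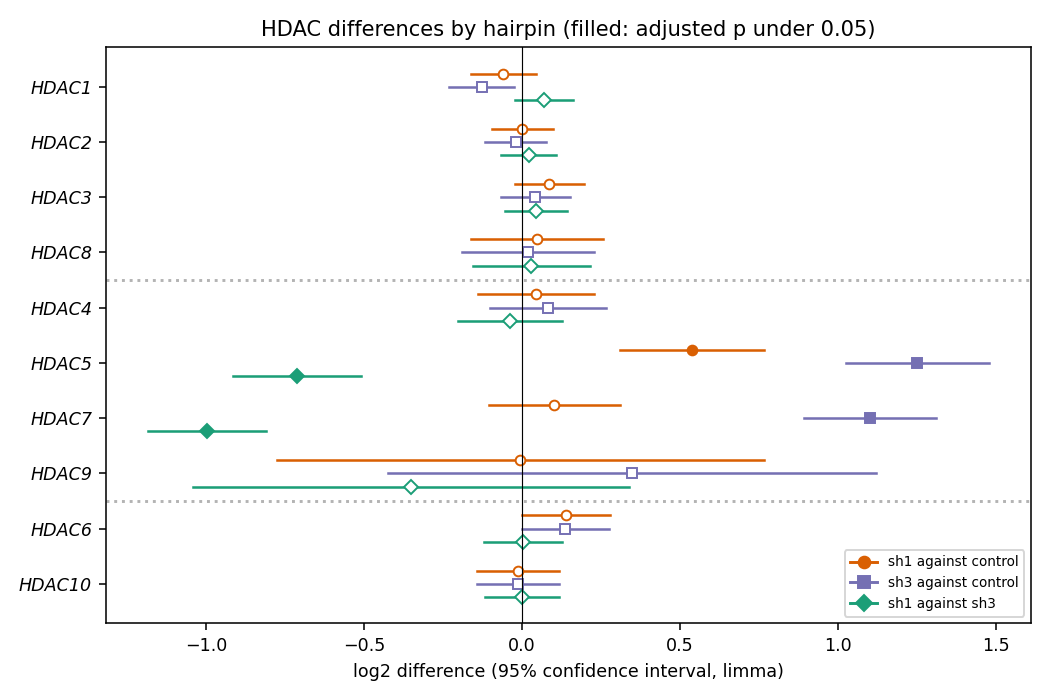
Log2 differences with 95% confidence intervals for sh1 against control, sh3 against control and sh1 against sh3, with filled symbols for adjusted p under 0.05. HDAC5 is filled in all 3 comparisons and HDAC7 in the 2 that involve sh3, at 1.10 against control and -0.998 between constructs.

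Summed over its 4 members, class IIa mRNA was highest with sh3. It totalled 8027 ± 722 normalized counts with sh1 and 10594 ± 639 with sh3 (SD over 3 libraries), against 7500 ± 501 in controls (n = 2), a ratio to control of 1.07 with sh1 and 1.41 with sh3. The sh3 ratio was 1.66 per kilobase of complete coding transcripts, 1.61 per kilobase of the longest transcript and 1.38 per kilobase of all coding transcripts. Class I totalled 24292 ± 231 with sh1 and 23629 ± 265 with sh3, against 24414 ± 363 in controls. Class IIb totalled 6375 ± 282 with sh1 and 6362 ± 51.5 with sh3, against 6068 ± 4.24 in controls.

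The share of class IIa in all deacetylase mRNA depended on the length used, while sh3 stood above the other groups with each of them. It was 8.15% to 9.41% with sh1 and 12.1% to 13.5% with sh3, against 7.67% to 8.62% in controls, per kilobase of complete coding transcripts. Per kilobase of all coding transcripts it was 26.1% to 29.3% with sh1 and 31.7% to 34.1% with sh3, against 25.1% to 27.4% in controls. Without a length it was 19.7% to 22.4% with sh1 and 24.9% to 26.7% with sh3, against 18.9% to 20.6% in controls. Within class IIa, HDAC7 held 45.3% with sh1 and 59.1% with sh3, against 45.7% in controls, per kilobase of complete coding transcripts. Per kilobase of all coding transcripts HDAC7 held 24.9% with sh1 and 38.0% with sh3, against 24.5% in controls. Whether HDAC7 or HDAC4 was the larger with sh3 turned with the length, since HDAC4 held 29.2% with sh3 by complete transcripts and 54.3% by all coding transcripts.

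HDAC11, the only class IV enzyme and no member of the group above, was lower with sh3. It had 89.2, 95.1 and 103 normalized counts with sh1 and 69.3, 82.7 and 46.5 with sh3, against 116.5 and 115.7 in controls. All knockdown libraries lay below the controls, and with sh3 the log2 difference was -0.84 ± 0.23 (adjusted p = 0.026). That call ended with a variance prior that ignored the level of expression (adjusted p = 0.059), and without sh3 A (adjusted p = 0.051), sh3 C (0.051), control A (0.10) or control C (0.13). The knockdown mean did not pass the test (-0.56; adjusted p = 0.095).

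Of 13885 genes, those averaging at least 50 normalized counts (11398) were ranked by their Pearson correlation with HDAC5 and with HDAC7 over the 8 libraries. The levels of CCDC146 (r = 0.986), CPSF2 (0.984) and LMBR1L (0.982) followed HDAC5 most closely. Those of TMC6 (r = 0.996), DHX58 (0.990) and IER2 (0.990) followed HDAC7. HDAC5 and HDAC7 themselves had r = 0.93. The libraries share 3 groups, so that genes which separate sh3 from the rest score highly.

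Genes that work with the deacetylases were taken as 9 lists of 124 symbols, of which 110 were tested. In the knockdown mean 13 were higher and 12 lower, a share of 22.7% beside 12.7% of all genes. The lists were not matched to all genes by level of expression, on which the spread depends, and the difference in share was not tested. With sh1 the counts were 7 higher and 5 lower (10.9% beside 6.31% of all genes) and with sh3 21 and 17 (34.5% beside 18.6%). The median log2 difference of the tested list genes in the knockdown mean was 0.023, beside -0.0022 over all genes. The knockdown count of 25 fell to 10 without control A, 4 without control C, 12 without sh3 A and 13 without sh3 B.

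For the complexes of class I enzymes, the share of members called in the knockdown mean was 7.69% in NuRD and 28.6% in SIN3. It was 7.14% in CoREST and MiDAC and 33.3% in the NCOR complexes, beside 12.7% of all genes. Each share rests on few genes, and a difference between the complexes was not tested. In NuRD, the remodelling deacetylase complex, 0 of 13 were higher and 1 was lower, the subunit CDK2AP1 (log2 difference -0.33; adjusted p = 0.0080). For CDK2AP1 the sh1 arm stood at -0.15 (adjusted p = 0.25), overlapping the controls, and the sh3 arm at -0.51 (0.00081). The gap of sh1 from sh3 was 0.36 (0.0040). In the SIN3 complex 3 of 14 were higher and 1 lower, with the subunits SAP30 at 0.33 (adjusted p = 0.0046), SUDS3 at 0.22 (0.027) and PHF12 at -0.19 (0.027). In CoREST and MiDAC 1 of 14 was higher, the CoREST scaffold RCOR1 (0.32; adjusted p = 0.012). In the NCOR complexes 1 of 6 was higher and 1 lower, and CORO2A, the lower one, was at -0.48 (adjusted p = 0.0056).

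The regulators and partners of class IIa enzymes were called in both directions. The share called in the knockdown mean was 29.4% of kinases and 14-3-3 genes, 16.7% of partner factors and 25% of MEF2 targets. Over all genes it was 12.7%, and each list share rests on few genes. Of 17 kinases and 14-3-3 genes 2 were higher and 3 lower, including PRKD2, a protein kinase D that phosphorylates class IIa enzymes (0.22; adjusted p = 0.026), and the 14-3-3 genes YWHAH (0.17; adjusted p = 0.022) and YWHAG (-0.29; adjusted p = 0.0015). The PRKD2 rise was 0.11 in the sh1 arm (adjusted p = 0.33) and 0.33 in the sh3 arm (0.0047). The gap of sh1 from sh3 was -0.22 (0.027). Of 12 partner factors 2 were higher and 0 lower in the knockdown mean. They were ANKRA2, an ankyrin-repeat protein that binds class IIa enzymes (0.36; adjusted p = 0.016), and the transcription factor RUNX2 (0.26; adjusted p = 0.028). With sh1 alone 1 was higher and 0 lower, beside 2.88% and 3.43% of all genes. With sh3 alone 4 were higher and 1 lower, beside 9.36% and 9.19% of all genes. RUNX3 was higher with sh1 (0.76; adjusted p = 0.021) and lower with sh3 (-0.64; adjusted p = 0.019), which the knockdown mean averages to 0.061. In the knockdown mean 1 of 4 tested MEF2 targets was higher, the AP-1 gene JUN (0.65, adjusted p = 0.00085), and 0 were lower. With sh1 alone 1 target was higher and 0 lower, and with sh3 alone 2 were higher and 1 lower. KLF6 was at 0.17 with sh1 (adjusted p = 0.076) and at -0.29 with sh3 (0.0037), which the knockdown mean averages to -0.058. NR4A1 was called higher with sh3 (1.52, adjusted p = 0.036) at a low level, 73.5 normalized counts against 28.2 in controls. JUN had 2885, 2588 and 2483 normalized counts with sh1 and 2393, 2903 and 2326 with sh3, against 1641 and 1658 in controls, without overlap.

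Of 3 tested MEF2 genes, MEF2A and MEF2D were called between the constructs and MEF2B was not (log2 difference of sh1 from sh3 0.25; adjusted p = 0.47, with overlap). These genes were chosen after their values were seen, outside the naming rule. MEF2A had 3122, 3361 and 3148 normalized counts with sh1 and 4037, 4113 and 3704 with sh3, against 3270 and 2956 in controls. MEF2D had 1773, 1501 and 1531 with sh1 and 1968, 1884 and 1981 with sh3, against 1536 and 1536 in controls. For MEF2A and MEF2D the sh3 libraries stood above all others. The log2 difference of sh1 from sh3 was -0.30 for MEF2A (adjusted p = 0.0071) and -0.28 for MEF2D (adjusted p = 0.018). Over all genes 11.4% were called between the constructs. Of the 12 tested class IIa partner factors, these 2 were called lower in sh1 than in sh3, beside 5.83% of all genes. RUNX3 was called the other way, by 1.40 (adjusted p = 0.000113). It averaged 910 normalized counts with sh1 and 346 with sh3, against 541 in controls.

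Among 16 substrates and partners of HDAC6 none was higher and 4 were lower in the knockdown mean (25% beside 12.7% of all genes). They included the peroxiredoxin PRDX1 (-0.41; adjusted p = 0.0027) and the alpha-tubulins TUBA1A (-0.26; adjusted p = 0.020) and TUBA1C (-0.24; adjusted p = 0.024), which are close paralogues whose reads can be split uncertainly. TUBA1C was at -0.12 without control C (adjusted p = 0.33). For TUBA1A the sh1 arm stood at -0.087 (adjusted p = 0.50), overlapping the controls, and the sh3 arm at -0.43 (0.0018). The gap of sh1 from sh3 was 0.34 (0.0044). With sh1 alone 1 of the 16 HDAC6 genes was higher and 1 lower, beside 2.88% and 3.43% of all genes. With sh3 alone 0 were higher and 5 lower, beside 9.36% and 9.19%. CTTN was the higher gene with sh1 (0.45, adjusted p = 0.034) and stood at -0.29 with sh3 (0.093). Between the constructs 3 of the 16 were called higher in sh1 and 0 lower, beside 5.61% and 5.83% of all genes. Of 14 polyamine genes 3 were higher and 2 lower in the knockdown mean (35.7% beside 12.7% of all genes). SAT1, which acetylates spermidine and spermine, was at 0.26 (adjusted p = 0.024), and the synthesis enzymes AMD1 and SRM at -0.27 (0.0042) and -0.26 (0.033). AMD1 was at -0.18 with sh1 (adjusted p = 0.061) and -0.36 with sh3 (0.00091), and the constructs differed (0.030). Of the higher genes, SLC18B1 was at 2.16 with sh1 (adjusted p = 0.0022) but at -0.39 with sh3 (0.40), and its knockdown libraries overlapped the controls. Of the 19 partner genes that the naming rule selects, JUN and YWHAG kept their call in all 15 alternatives, and without control C 16 of the 19 lost it. With the prior that ignored the level of expression 13 lost it. The call was lost by 10 without control A, 8 without sh3 A, 6 without sh3 B, 3 without sh1 B and 1 without sh3 C.

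**Figure D5:**
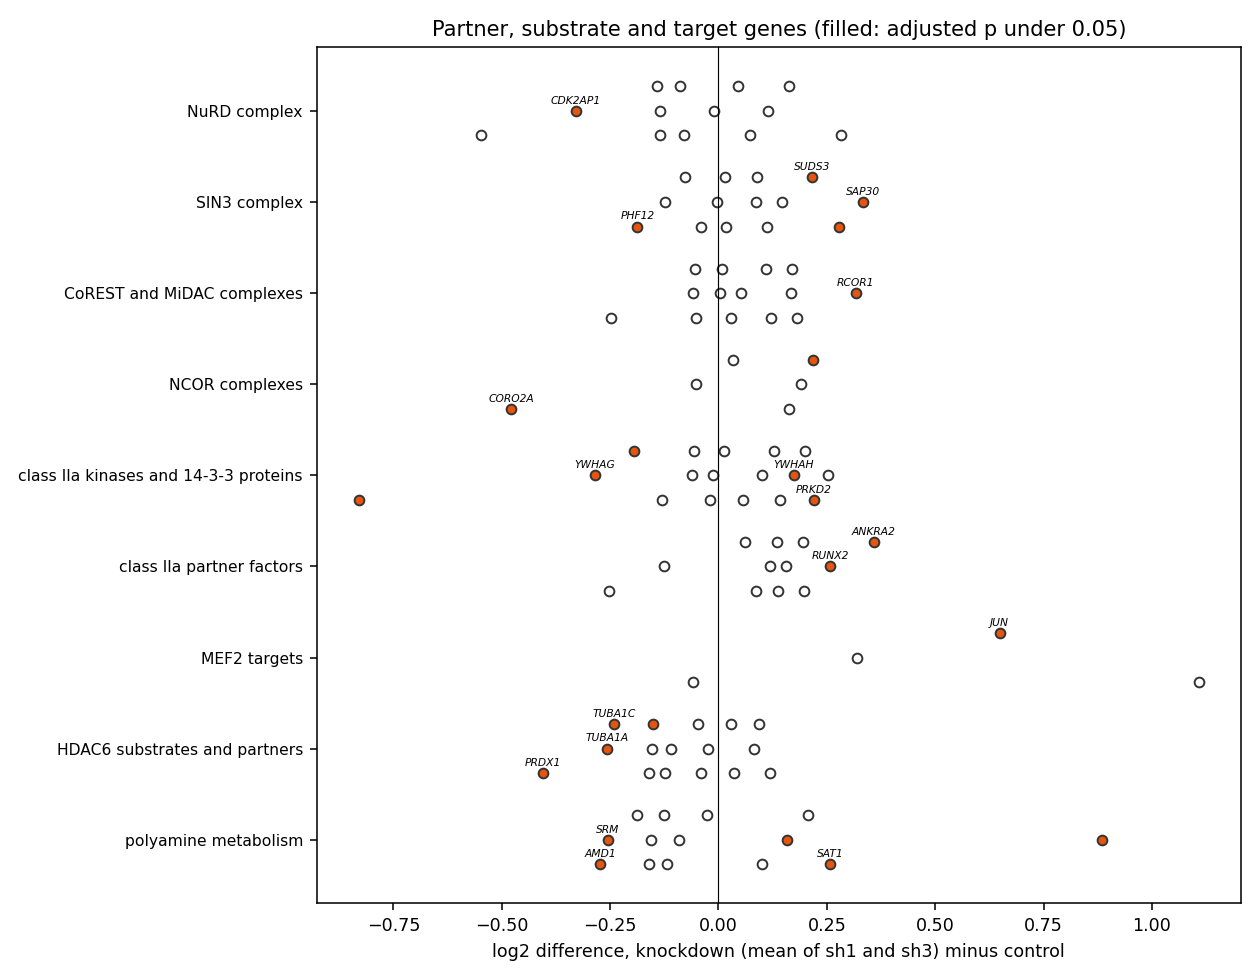
Log2 difference of the knockdown mean from control for the tested genes of 9 partner lists. Points are filled for adjusted p under 0.05, and labels mark the genes named in the text by the rule of smallest p. Called genes lie on both sides of 0 in 4 lists, and JUN stands at 0.65.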

How the data were processed

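RNA from 8 DND41 cultures had been made into strand-specific libraries. The authors deposited a signal for each gene symbol, namely counts after DESeq normalization. Kallisto 0.44.0 and hg38 are also named, per the submitters' processing notes. Which transcripts were counted is not stated there. Few values are whole, even after division by each library's step (23.5% to 37.8% of the low ones, to within 0.02), so no count test was used. Values were analysed as log2(value + 1), so that fold changes of low genes are understated. Genes averaging at least 10 were kept (13885 of 18133, with 4248 removed). A model of group means was fitted with limma 3.58.1 in R 4.3.3 (5 residual degrees of freedom, variance prior with a trend), the knockdown mean weighting sh1 and sh3 equally, and adjusted p under 0.05 was called. It was tested on simulated data. Levels per kilobase used the median length of complete coding transcripts in GENCODE, chosen after the lengths were seen. Promoters are RefSeq's (GRCh38.p14). Named genes were SIRT1, all members, HDAC11, the 3 called genes of smallest p in each partner list, and the 3 genes most correlated with each called member. The MEF2 genes, RUNX3, SLC18B1, KLF6, NR4A1 and CTTN were added after their values were seen. The partner lists were NuRD, SIN3, CoREST and MiDAC, NCOR complexes, class IIa kinases and 14-3-3 proteins, class IIa partner factors, MEF2 targets, HDAC6 substrates and partners, and polyamine metabolism. A B-cell marker and a partner gene that these rules take in are not reported here. Marker lists covered T, B, myeloid, erythroid and adherent cells. Members and lists were chosen with earlier results of these data known. The 15 alternatives were a pseudocount of 10, no filter, recomputed median of ratios, quantile normalization, a prior without a trend, a replicate block, array quality weights and each library left out.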

Additional observations from a re-analysis of the deposited data

Results flagged for a closer look

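HDAC5 and HDAC7 are listed because the effects of the 2 SIRT1 constructs differed in a direct test of sh1 against sh3. The log2 difference was -0.71 for HDAC5 (adjusted p = 0.000517, limma), with 602 to 754 normalized counts with sh1 and 1077 to 1157 with sh3. It was -0.998 for HDAC7 (adjusted p = 3.07e-05, limma), with 1845 to 2086 with sh1 and 3508 to 4260 with sh3. All 3 sh1 libraries lay below all 3 sh3 libraries for both genes.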

How the results depend on the processing

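Over the 10 members, 4 comparisons and 15 alternatives, 597 of 600 values kept their direction and side of the threshold or were uncalled throughout, 2 lost a call, 1 gained one and 0 called values reversed, while 38 uncalled values had another sign. The sh1 count of members was 0 with the prior without a trend, and 0 to 1 with 1 library left out. The knockdown count of partner genes, 25, was 6 with the prior without a trend, where 744 genes were called in all against 1768, and 4 to 29 with 1 library left out. With the replicate block it was 16, 5 named genes (PHF12, RUNX2, SAT1, SUDS3 and YWHAH) lost their call, and HDAC5 and HDAC7 kept their calls in the knockdown mean (0.93 and 0.61 on the log2 scale). Same-letter libraries had correlations of deviations between -0.062 and 0.058, and libraries of different letters and groups between -0.058 and 0.060. The letters were not taken as pairs. With 2 controls, whose deviations mirror each other, this check cannot settle whether the letters mark batches. Chosen after seeing the data, other lengths put the class totals over control at 1.66 and 1.61 (complete and longest transcripts) for class IIa with sh3, against 1.41 without a length, at 0.956 (longest) for class I with sh3, and at 1.04 (longest) and 1.08 (all coding transcripts) for class IIb with sh3. Class I with sh1 spanned 0.985 to 1.01 with 1 library left out. Without control C, 339 genes were called, where a lone control is assumed to vary like the other groups. The cause of these changes was not tested. Depth is unknown, and 2 controls limit every comparison with them.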
